A study of Homo sapiens with 8 samples.

Results

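Cysteine tRNAs carry cysteine to the ribosome and read its codons with the anticodon GCA. The genes described here are the rows of the deposited tRNA count table whose amino acid column reads Cys, without the row whose name has the prefix nm-. They are 38 of the 631 tRNA genes in the table. The anticodon is GCA in 37 of them and ACA in Cys-ACA-1-1. The gene named Und-NNN-5-1 is among the 37, because its amino acid and anticodon columns read Cys and GCA although its name does not.

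Nuclear tRNA genes are transcribed by RNA polymerase III from promoter elements inside the gene, and the ends of the transcript are then trimmed. Under stress, angiogenin can cut mature tRNAs in the anticodon loop. The 5′ pieces of alanine and cysteine tRNAs begin with a run of G and are known to inhibit translation. ADAT2 is a subunit of the deaminase that turns adenosine at anticodon position 34 into inosine. A GCA anticodon has G at that position, so this deaminase is not known to edit tRNA-Cys-GCA.

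The libraries were made from HEK293T cells, a human embryonic kidney line. Control cells were transfected with Cas9 but no guide RNA and are labelled with 100% ADAT2 expression. The knockdown line was made with Cas9 and a guide to ADAT2, is described as a stable heterozygote and is labelled with 50% ADAT2 expression. Each group holds 2 libraries of size-selected small RNA, each sequenced on 2 lanes. The labels number them 3 and 4 in both groups, and they are called control 3, control 4, knockdown 3 and knockdown 4 here.

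Total counts over all tRNA genes lay between 698143 and 1211292 per library. The counts cover tRNA genes alone, so the labelled ADAT2 level was not checked. Each group is 1 cell line, and what ADAT2 does cannot be told apart from anything else in which the lines differ. Separate cultures are not named in the labels, and p-values therefore reflect a spread between libraries that may be technical. Counts do not separate mature tRNA, precursor and fragment, and the placing of reads that match several genes is not stated. Intervals given for shares and limits for a count of 0 cover counting error only.

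The cysteine genes lie on 11 chromosomes (hg38), with most of them in 2 places. On chromosome 7, 19 genes stand between positions 149310190 and 149707740, a stretch of 397551 bases, 9 on the plus strand and 10 on the minus strand. Neighbours in this cluster are separated by 1679 to 131330 bases, with a median of 17106.5 bases over 18 gaps. On chromosome 17, 6 genes stand between positions 38833722 and 39154562. The nearest neighbours there, Cys-GCA-2-3 and Cys-GCA-2-4, are 685 bases apart. The other 13 genes are scattered.

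Against GENCODE v29, 22 of the 38 genes lay between annotated genes, 16 lay in introns and 0 overlapped an exon. ZNF767P, a transcribed pseudogene in the chromosome 7 cluster, holds 6 cysteine genes in its introns, 3 on its own strand and 3 on the opposite strand. CPNE4, a protein-coding gene on chromosome 3, holds Cys-GCA-6-1 and Cys-GCA-9-1 in introns, 2626 bases apart and both on its own strand. The gene length is 72 bases for 28 of the genes and ranges from 56 to 176 bases over all 38. The longest is Cys-ACA-1-1, which the table marks as holding an intron.

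The deposited table gives each gene a tRNA prediction score, from 7.42 for Cys-GCA-chr11-21 to 79.54 for Cys-GCA-1-1. A score of at least 55 was reached by 29 genes. The 9 genes below it gave 1.63 to 2.80% of the cysteine counts of a library. The highest count among them was 387 summed over the libraries, at Cys-GCA-25-1, a 66-base prediction in an intron of TBC1D5 on chromosome 3. Over all 38 genes the Spearman correlation between score and summed count was 0.653. Among the 29 with the higher scores it was 0.407. Both are descriptions across genes, which share libraries and near-identical sequences and are not independent.

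No read was counted in any library at Cys-GCA-chr12-13, Cys-GCA-chrX-3 and Und-NNN-5-1. All 3 have scores below 55 and lie in introns, of MYRFL and AC025263.2 on chromosome 12, of PCYT1B on chromosome X and of ARSG on chromosome 17. A count of 0 allows up to 3 counts, which is 4.30 CPM of all counts in control 3 and 3.41 CPM in knockdown 3. It is 2.80 CPM in control 4 and 2.48 CPM in knockdown 4. Every gene with a score of at least 55 had counts in at least 1 library.

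Together the cysteine genes had 2335 counts in control library 3 and 10846 in control library 4. They had 3317 in knockdown library 3 and 19343 in knockdown library 4. As a share of all tRNA counts this was 0.334% (95% Wilson interval 0.321 to 0.348) in control library 3 and 1.01% (0.995 to 1.03) in control library 4. In the knockdown line the share was 0.377% (0.365 to 0.390) in library 3 and 1.60% (1.57 to 1.62) in library 4. Both libraries with number 4 lay above both with number 3.

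The share was 0.674 ± 0.480% in the control line and 0.987 ± 0.862% in the knockdown line (mean ± SD, n = 2 each). The difference was 0.313 percentage points, and a two-sided exact permutation test gave p = 0.667, where 0.33 is the smallest p that 2 against 2 libraries allow. Within number 3 the knockdown library was 0.0430 points above the control, and within number 4 it was 0.583 points above. The groups overlapped, and the difference turned to -0.0265 points without control 3 and to -0.297 points without knockdown 4.

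The counts were spread unevenly over many genes. In each library 17 or 18 genes, of 34 or 35 with a count, were enough for 90% of the cysteine counts. The leading gene of a library held 12.8 to 19.9% of them. The 10 genes with the highest mean level gave 69.3% of them in control 3, 73.2% in knockdown 3, 73.7% in control 4 and 75.2% in knockdown 4. Levels of genes with an identical mature sequence depend on how reads were placed, which is not stated. All 10 genes are 72 bases long, so no correction for length was made. In the order of their mean level, in CPM scaled by edgeR's TMM method, they are Cys-GCA-2-2, Cys-GCA-17-1, Cys-GCA-12-1, Cys-GCA-2-1, Cys-GCA-1-1, Cys-GCA-9-3, Cys-GCA-9-2, Cys-GCA-9-4, Cys-GCA-21-1 and Cys-GCA-2-4.

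Cys-GCA-2-2, between genes near LASP1 in the chromosome 17 cluster (38867645 to 38867716, plus strand), had 358 counts in control 3, 382 in knockdown 3, 1437 in control 4 and 2307 in knockdown 4. Its scaled level was 580 CPM in control 3, 518 in knockdown 3, 1267 in control 4 and 1499 in knockdown 4. Cys-GCA-17-1 (chromosome 7, 149691181 to 149691252, minus strand) had 296 counts in control 3, 350 in knockdown 3, 1373 in control 4 and 1763 in knockdown 4. The scaled level of both genes was higher in number 4 than in number 3 in each line.

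Cys-GCA-12-1 (chromosome 7, 149646955 to 149647026, minus strand) had 110 counts in control 3, 211 in knockdown 3, 1105 in control 4 and 2481 in knockdown 4. It was the cysteine gene with the most counts in knockdown library 4, at 12.8% of them. Cys-GCA-2-1 (chromosome 4, 123508850 to 123508921, minus strand), which lies in introns of the long noncoding RNAs LINC02435 and AC093821.1 on the other strand, had 302 counts in control 3, 661 in knockdown 3, 368 in control 4 and 614 in knockdown 4. It led in knockdown library 3 with 19.9% of the cysteine counts, and was the one gene of the 10 with a lower scaled level in number 4.

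Cys-GCA-1-1 (chromosome 7, 149310190 to 149310261, plus strand) is the gene with the highest prediction score. It had 90 counts in control 3, 121 in knockdown 3, 670 in control 4 and 1488 in knockdown 4. Cys-GCA-21-1 (chromosome 7, 149664824 to 149664895, plus strand) had 101 counts in control 3, 208 in knockdown 3, 558 in control 4 and 983 in knockdown 4. Cys-GCA-2-4 (chromosome 17, 39154491 to 39154562, minus strand) had 147 counts in control 3, 202 in knockdown 3, 562 in control 4 and 725 in knockdown 4, and it lies 97 bases from the annotated PLXDC1.

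The other 3 of the 10 are Cys-GCA-9-3 (chromosome 7, 149635687 to 149635758), Cys-GCA-9-2 (149331129 to 149331200) and Cys-GCA-9-4 (149707669 to 149707740), all on the plus strand. Their mature sequence is shared, and their counts ran close together in each library. In control library 3 they had 78, 69 and 67 counts, and in knockdown library 3 they had 107, 96 and 91. In control library 4 they had 707, 608 and 605 counts, and in knockdown library 4 they had 1445, 1364 and 1372. For each neighbouring pair in the order of these 10 levels, the ranges over the 4 libraries overlapped.

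**Figure D1:**
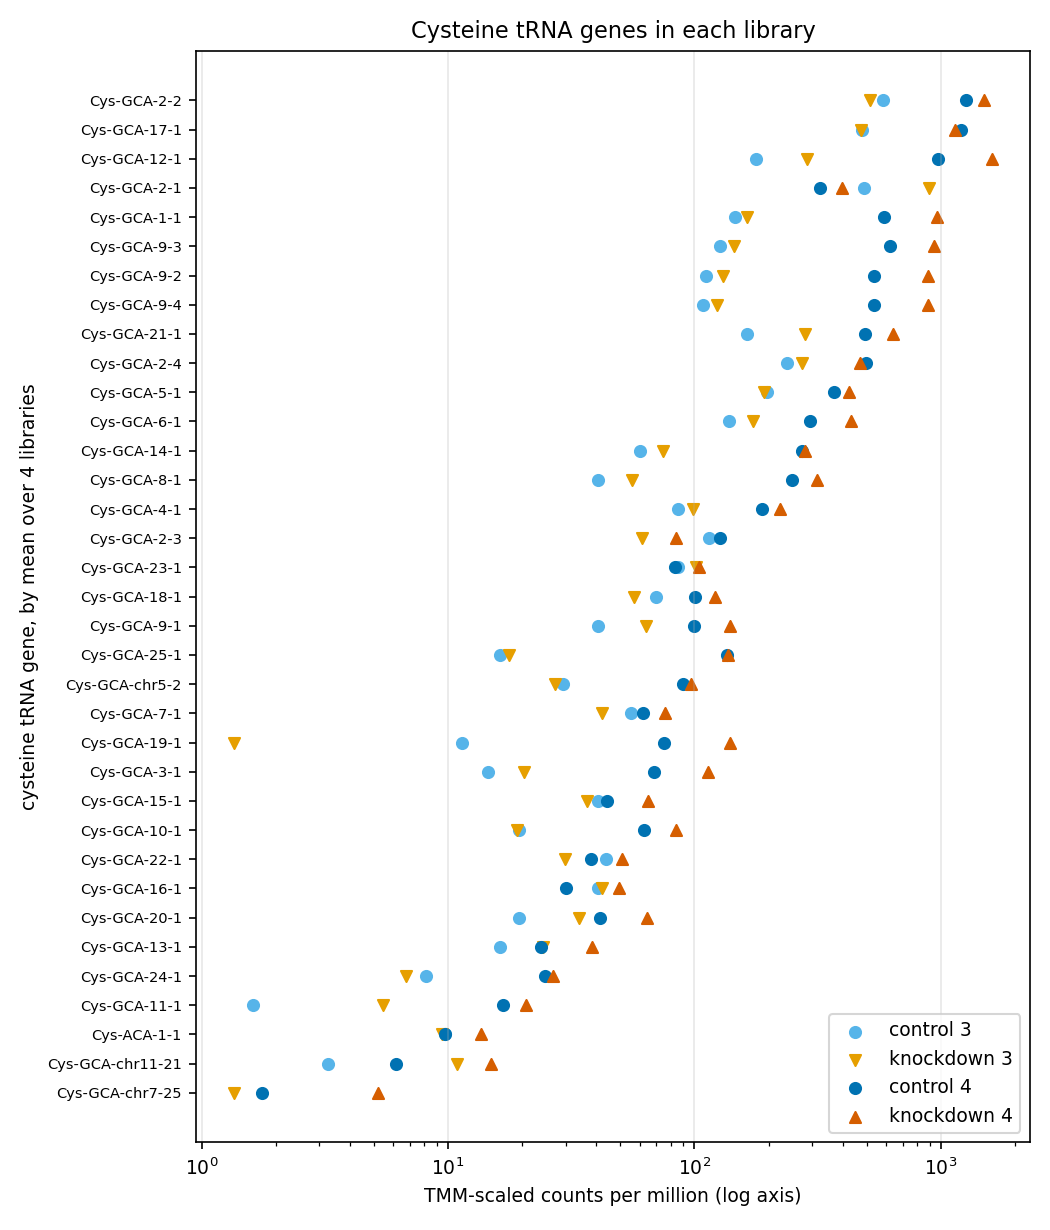
Level of each cysteine tRNA gene in each library, as TMM-scaled CPM on a log axis, with genes ordered by their mean. Circles are control and triangles knockdown libraries, and points of number 4 lie to the right of number 3 for most genes, with Cys-GCA-2-1 the other way round. A gene with no count in a library has no point there, and the 3 genes at 0 in all libraries are left out.

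Copies with the same first number in their name, such as Cys-GCA-2-1 to Cys-GCA-2-4, share 1 mature sequence. The 38 genes form 32 such groups, and 2 groups have more than 1 copy, Cys-GCA-2 and Cys-GCA-9 with 4 copies each. The copies of Cys-GCA-2 gave 37.6% of the cysteine counts in control 3, 38.9% in knockdown 3, 23.2% in control 4 and 19.5% in knockdown 4. The copies of Cys-GCA-9 gave 10.2% of the cysteine counts in control 3, 10.3% in knockdown 3, 18.7% in control 4 and 22.7% in knockdown 4. By mean scaled level over the libraries, Cys-GCA-2 ranked 1 and Cys-GCA-9 ranked 2 among the 32 groups, at 1996 and 1463 CPM.

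The counts of Cys-GCA-2 were divided unequally among its copies. Cys-GCA-2-2 on chromosome 17 held 40.8% of the group in control 3, 29.6% in knockdown 3, 57.2% in control 4 and 61.1% in knockdown 4. Cys-GCA-2-1 on chromosome 4 held 34.4% of the group in control 3, 51.2% in knockdown 3, 14.7% in control 4 and 16.3% in knockdown 4. The order of these copies was therefore not the same in every library, since Cys-GCA-2-1 stood first in knockdown library 3 and behind Cys-GCA-2-2 and Cys-GCA-2-4 in both libraries of number 4.

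Cys-GCA-2-3, in an intron of PLXDC1 on its own strand, was the smallest copy of that group in every library. It had 71 counts in control 3, 45 in knockdown 3, 144 in control 4 and 130 in knockdown 4, from 3.44 to 8.09% of the group. Its share was 6.91 ± 1.66% in the control line and 3.47 ± 0.0322% in the knockdown line (mean ± SD, n = 2 each). The knockdown libraries were both lower, and the two-sided exact permutation test gave p = 0.33, the smallest possible here.

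The 3 chromosome 7 copies of Cys-GCA-9 each held 26.7 to 34.8% of their group in every library. The fourth copy, Cys-GCA-9-1 on chromosome 3, had 25 counts in control 3, 47 in knockdown 3, 113 in control 4 and 214 in knockdown 4. That was 10.5% of the group in control 3, 13.8% in knockdown 3, 5.56% in control 4 and 4.87% in knockdown 4. The copies outside chromosomes 7 and 17, Cys-GCA-2-1 and Cys-GCA-9-1, thus both held a smaller share of their group in number 4 than in number 3. The placement of reads among copies with identical mature sequence was not tested.

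**Figure D2:**
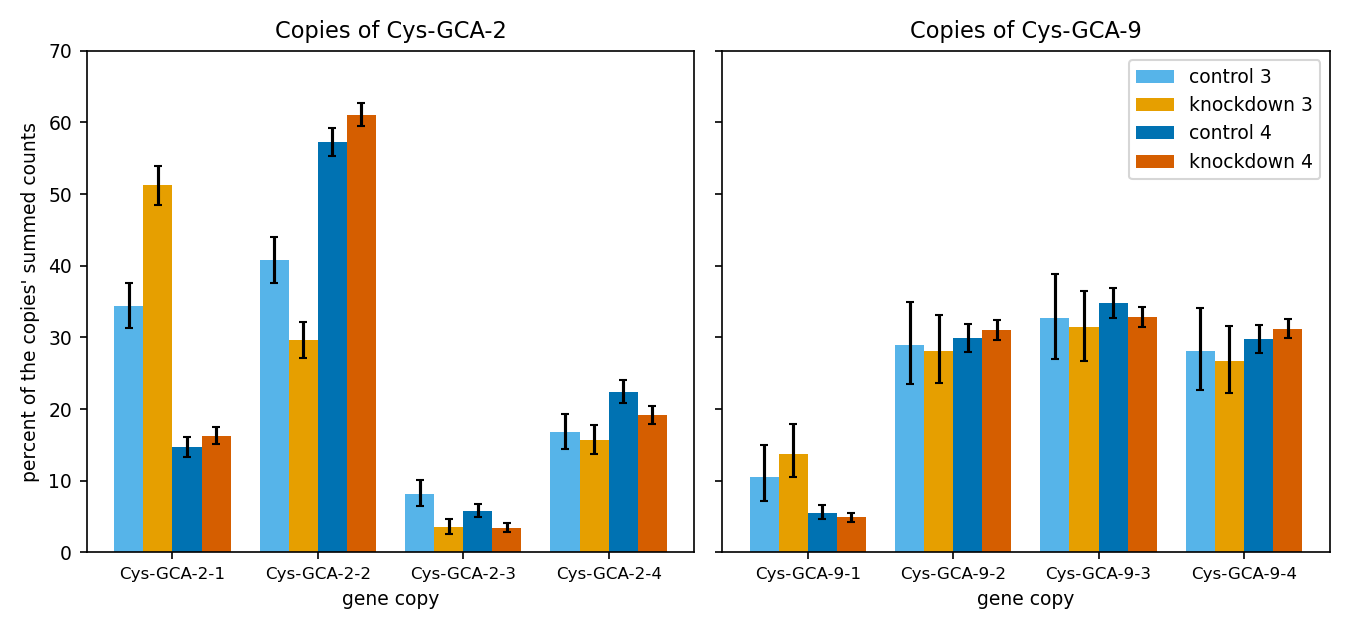
Percent of the summed counts of Cys-GCA-2 (left) and Cys-GCA-9 (right) held by each copy, 1 bar per library, with 95% Wilson intervals of counting error. Cys-GCA-2-1 ranges from 14.7 to 51.2% across libraries, while Cys-GCA-9-2, Cys-GCA-9-3 and Cys-GCA-9-4 stay between 26.7 and 34.8%.

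The chromosome 7 cluster gave 44.3% (95% Wilson interval 42.3 to 46.3) of the cysteine counts in control library 3 and 58.0% (57.1 to 58.9) in control library 4. It gave 44.0% (42.3 to 45.7) in knockdown library 3 and 63.1% (62.5 to 63.8) in knockdown library 4. The libraries with number 4 were both higher. Knockdown exceeded control by 2.40 percentage points over all libraries (two-sided exact permutation test, p = 1), by 5.14 points within number 4 and by -0.340 points within number 3. It turned to -4.44 points without control 3 and to -7.18 points without knockdown 4.

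The chromosome 17 cluster gave 28.7% of the cysteine counts in control 3, 23.0% in knockdown 3, 24.9% in control 4 and 20.6% in knockdown 4. Its share was 26.8 ± 2.74% in the control line and 21.8 ± 1.71% in the knockdown line (mean ± SD, n = 2 each). Both knockdown libraries lay below both control libraries, and the two-sided exact permutation test gave the smallest p it can, 0.33. Within number 3 the share differed by -5.76 points, and within number 4 by -4.30 points.

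The 13 scattered genes gave 26.9% of the cysteine counts in control 3, 33.0% in knockdown 3, 17.1% in control 4 and 16.3% in knockdown 4. A split by annotation gave a like order of the libraries. The 16 genes in introns gave 33.4% of the cysteine counts in knockdown 3, 15.5% in control 4 and 15.1% in knockdown 4, and the 95% Wilson interval of their share in control 3 ran from 27.2 to 30.9%. Cys-GCA-2-1 belongs to both of these sets.

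**Figure D3:**
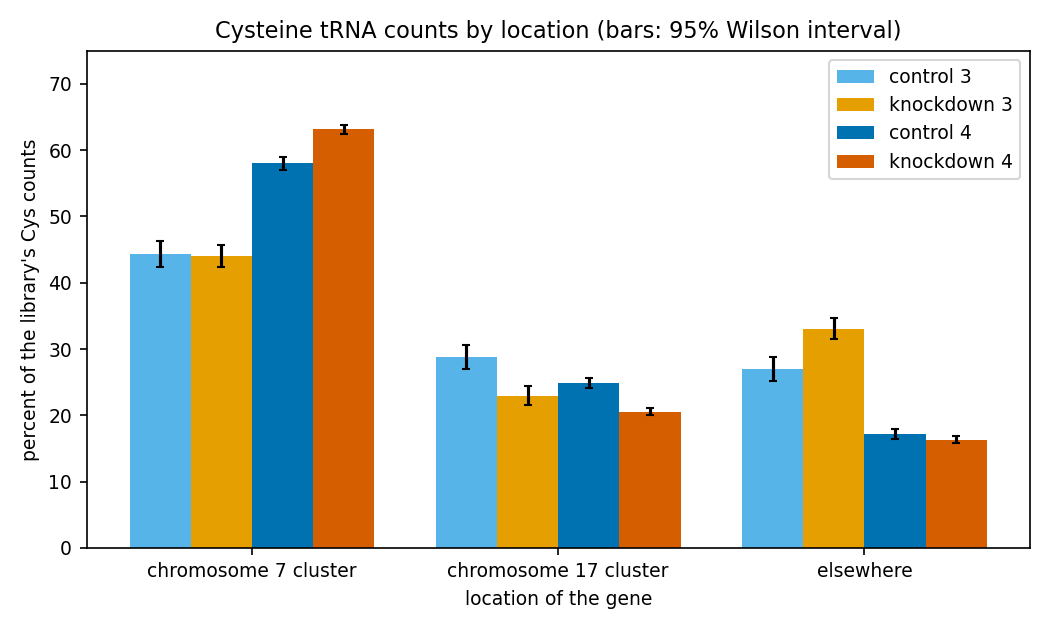
Percent of each library's cysteine tRNA counts from the 19 genes of the chromosome 7 cluster, the 6 genes of the chromosome 17 cluster and the 13 other genes, with 95% Wilson intervals of counting error. The chromosome 7 share is 44.0 to 44.3% in number 3 and 58.0 to 63.1% in number 4, and the chromosome 17 share is lower in knockdown than in control within both numbers.

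The comparison of the knockdown with the control line asks, in the labels' terms, how less ADAT2 goes with tRNA gene counts. Of the 38 cysteine genes, 33 passed the filter on low counts and were tested among 489 tRNA genes. None of the 33 passed an adjusted p of 0.05 in edgeR's quasi-likelihood test, against a background of 0% of all genes tested in either direction. At an unadjusted p under 0.05 there were 0 cysteine genes and 1 gene in all. DESeq2 called 0 of 574 genes, with 1 at an unadjusted p under 0.05. Every adjusted p of a cysteine gene was 0.998 in edgeR.

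The log2 fold changes of the 33 genes ran from -0.73 to 0.72 with a median of 0.33, while the median over all 489 genes was -0.029. The estimate was positive for 30 cysteine genes and negative for 3, and positive for 230 of all 489 genes. Standard errors ran from 0.55 to 1.60. Summed over anticodons, Cys-GCA had a log2 fold change of 0.61 ± 0.85 (SE) and an adjusted p of 0.994 in edgeR, and the estimate turned to -0.023 without control 3 and to -0.56 without knockdown 4. Its counts were 2329 in control 3, 3310 in knockdown 3, 10836 in control 4 and 19324 in knockdown 4. With TMM factors from families, as in that fit, those counts gave log2 ratios of 0.07 within number 3 and 0.81 within number 4. With TMM factors from genes they gave 0.25 and 0.39. The family estimate was 0.40 with DESeq2-type size factors in edgeR, 0.55 with library totals, 0.61 with no filter and 0.44 with DESeq2. Cys-ACA, with 6 to 21 counts per library, had 0.43 ± 0.89. In all, 0 of 52 anticodon families and 0 of 326 groups of identical copies passed in edgeR. At an unadjusted p under 0.05 there were 0 families and 1 group.

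A fit with the replicate number as a further term made calls, although the labels do not say that a number marks a batch. For genes and groups of copies, this fit used a spread pooled over all features and not each feature's own. It called 2 cysteine genes higher, against 5.32% of all genes tested, and these were Cys-GCA-12-1 and Cys-GCA-2-1. It called 1 lower, against 2.66% of all genes tested, which was Cys-GCA-2-3. That call was lost when library totals replaced TMM (adjusted p = 0.0944 in edgeR), and DESeq2 with the same term gave the gene no adjusted p. The calls of Cys-GCA-12-1 and Cys-GCA-2-1 were also made in both of those fits. Among groups of copies it called 4 of 27 cysteine groups higher, against 10.1% of all groups, and 0 lower, against 3.68% of all groups. They were Cys-GCA-1, Cys-GCA-9, Cys-GCA-12 and Cys-GCA-21. Only Cys-GCA-9 of these sums several copies, and the groups were scaled anew. Cys-GCA-1-1 and Cys-GCA-21-1, the lone members of their groups, were not called as genes with TMM (adjusted p = 0.105 and 0.0555 in edgeR). Cys-GCA-2, which sums Cys-GCA-2-1, Cys-GCA-2-3 and their other copies, was not called (0.24 ± 0.17, adjusted p = 0.442 in edgeR).

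Because the libraries differ by number, ratios of knockdown to control were also read within each number, from 1 library per group and thus with no error of their own. The ratio was above 1 within both numbers for 19 of the 33 cysteine genes, or 57.6%, against 27.2% of all genes tested. It was below 1 within both for 2 of 33, or 6.06%, against 34.4% of all genes. These were Cys-GCA-2-3 and Cys-GCA-17-1. Within number 3 alone the ratio was above 1 for 60.6% of the cysteine genes, beside 51.9% of all genes tested. Within number 4 alone it was above 1 for 90.9%, beside 40.9%. The median log2 ratio of the cysteine genes was 0.18 within number 3 and 0.38 within number 4, beside medians over all tested genes of 0.032 and -0.085. With library totals in place of TMM, the medians were 0.11 and 0.64 for cysteine genes and -0.041 and 0.18 for all genes.

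Cys-GCA-12-1 had the largest estimate, at 0.72 ± 1.16 on the log2 scale over all libraries. Its log2 ratio was 0.68 within number 3 and 0.73 within number 4. Cys-GCA-3-1, in an intron of ZNF767P, had 9 counts in control 3, 15 in knockdown 3, 78 in control 4 and 175 in knockdown 4, with log2 ratios of 0.45 and 0.72. For Cys-GCA-2-1 the log2 ratios were 0.87 within number 3 and 0.30 within number 4. Of the 26 cysteine genes that averaged at least 50 counts, these 3 had the largest positive estimates with the same sign in both numbers.

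The 3 chromosome 7 copies of Cys-GCA-9 had log2 ratios of 0.18 to 0.22 within number 3 and 0.59 to 0.74 within number 4. Cys-GCA-1-1 had 0.17 and 0.71, and Cys-GCA-21-1 had 0.78 and 0.38. Those 5 genes were above the control in both numbers.

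Cys-GCA-2-2 had log2 ratios of -0.16 and 0.24, and Cys-GCA-2-4 had 0.20 and -0.074, so with TMM neither kept its sign. With library totals Cys-GCA-2-4 had a ratio above 1 in both numbers, at log2 ratios of 0.13 and 0.19. Cys-GCA-17-1 had -0.017 and -0.080, and its estimate of -0.062 over all libraries turned to 0.12 with library totals. Cys-GCA-2-3 stood apart with -0.91 and -0.59 and an estimate of -0.73 ± 0.56 over all libraries. It was the one cysteine gene whose knockdown libraries were both below both control libraries in scaled level, 3.03% of the 33, beside 7.98% of all genes tested. The groups were separated the other way at 3 genes of the chromosome 7 cluster, chosen after their values were seen. They are Cys-GCA-13-1, Cys-GCA-16-1 and Cys-GCA-23-1, with estimates of 0.64 ± 0.89, 0.38 ± 0.72 and 0.28 ± 0.55. They are 9.09% of the 33 cysteine genes, beside 5.11% of all genes tested.

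By location, the summed counts of the chromosome 7 cluster gave log2 ratios of 0.24 and 0.52 within numbers 3 and 4. The chromosome 17 cluster gave -0.075 and 0.12, and the scattered genes gave 0.54 and 0.32. In 12 of the 18 tested genes of the chromosome 7 cluster the ratio was above 1 in both numbers, as in 2 of 6 on chromosome 17 and 5 of 9 elsewhere. That is 66.7%, 33.3% and 55.6%, beside 27.2% of all genes tested. These differences between locations were not tested.

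**Figure D4:**
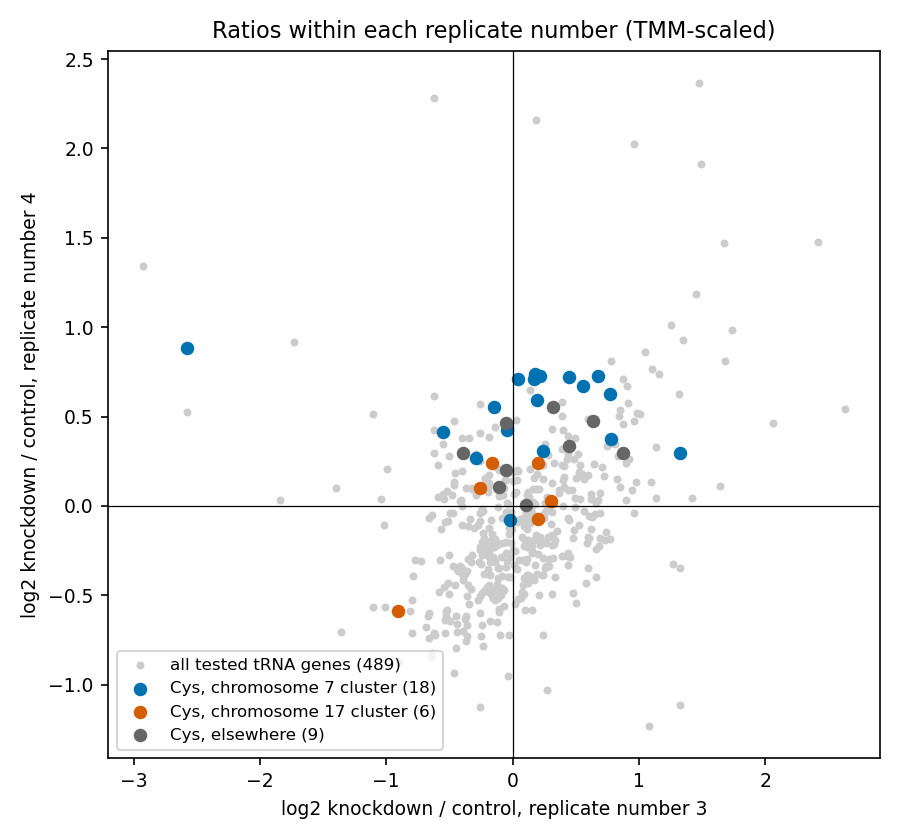
Log2 ratio of knockdown to control within replicate number 3 (horizontal) and number 4 (vertical) for 489 tested tRNA genes, with the 33 cysteine genes in colour by location. Of the cysteine genes, 19 lie at the upper right and 2 at the lower left, and Cys-GCA-19-1 is the point at -2.58 and 0.89.

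Cys-GCA-19-1, in an intron of ZNF767P, shows how few counts can lie behind such a ratio. It had 7 counts in control library 3 and 1 in knockdown library 3, beside 85 and 214 in the libraries of number 4. The 2 genes with counts that did not pass the filter, Cys-GCA-chr11-21 and Cys-GCA-chr7-25, had at most 23 and 8 counts in a library.

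Most cysteine genes were higher in the libraries of number 4. In the fit with the line as the other term, 24 of the 33 cysteine genes were higher in number 4 than in number 3 at an adjusted p under 0.05 in edgeR, against 40.3% of all tested genes, and 1 was lower, against 37.4% of all tested genes. The median log2 difference was 1.30 for cysteine genes and 0.0068 for all genes. In scaled level, both libraries of number 4 lay above both of number 3 for 26 of the 33 genes, beside 42.7% of all genes tested, and below them for 1 gene, beside 39.9%. Summed over all 38 genes, number 4 exceeded number 3 by 1.34 in the control line and by 1.48 in the knockdown line on the log2 scale with TMM, and by 1.60 and 2.08 with library totals. What the number stands for is not given in the labels. The SEs and p-values of genes in that fit rest on a spread pooled over all genes. They do not measure each gene's own spread between libraries.

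The largest difference was at Cys-GCA-19-1, with a log2 difference of 4.13 ± 0.41. It rests on 7 counts in control 3 and 1 in knockdown 3, beside 85 and 214 in number 4. By line, its log2 difference was 2.72 in the control and 6.68 in the knockdown, which the pooled SE does not show. Cys-GCA-25-1 followed with 3.00 ± 0.32, from 10 and 13 counts in the libraries of number 3 and 154 and 210 in those of number 4. Next came Cys-GCA-9-4 with 2.59 ± 0.21 and Cys-GCA-8-1 with 2.54 ± 0.24. The gene that was lower in number 4 was Cys-GCA-2-1, at -0.89 ± 0.19 and an adjusted p of 4.86e-06 in edgeR. Its copy Cys-GCA-2-2 was higher in number 4, at 1.33 ± 0.19 with an adjusted p of 7.60e-11. The direction thus differed between copies that share a mature sequence.

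In the chromosome 7 cluster 13 of the 18 tested genes were higher in number 4 and 0 were lower, with a median of 1.65. On chromosome 17, 5 of 6 were higher and 0 lower, and among the scattered genes 6 of 9 were higher and 1 lower. Over all tested genes, 40.3% were higher and 37.4% lower. Summed over copies, 23 of 27 cysteine groups were higher and 0 lower, against 44.5% and 33.4% of all groups. Cys-GCA-2 as a group was higher by 0.79 ± 0.18 and Cys-GCA-9 by 2.65 ± 0.19. The Cys-GCA family was higher by 1.44 ± 0.26, with an adjusted p of 0.0467 in edgeR, in a table where 34.6% of families were higher and 23.1% lower.

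**Figure D5:**
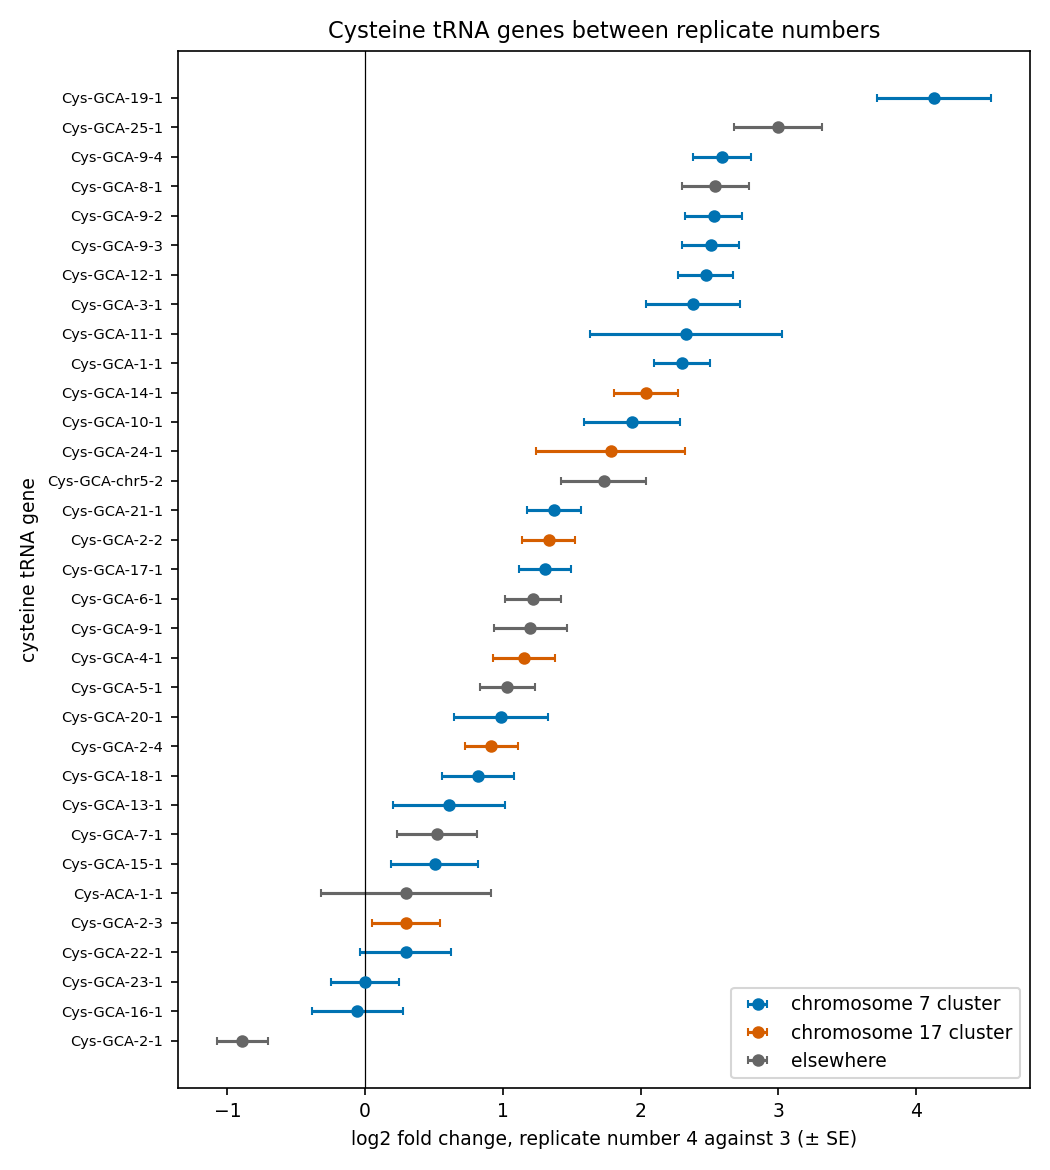
Log2 fold change of replicate number 4 against 3 for the 33 tested cysteine genes, from edgeR with the line as the other term, with bars of 1 SE and colours by location. Values run from -0.89 at Cys-GCA-2-1 to 4.13 at Cys-GCA-19-1, which had 7 counts in control 3 and 1 in knockdown 3.

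The alanine genes, whose tRNAs also begin with a run of G, were also mostly higher in number 4. Of 45 tested genes of the alanine families, 34 were higher in number 4 and 4 were lower, with a median log2 difference of 1.95. Their share of all counts was 0.847% in control 3, 0.901% in knockdown 3, 3.48% in control 4 and 3.77% in knockdown 4. The 8 families that the deaminase is known to edit, which include Ala-AGC, also served for comparison. Cys-ACA-1-1 has adenosine at position 34 as well, but it is not in those families and was counted with the cysteine genes alone. Of 99 tested genes of the 8 families, 54 were higher in number 4 and 32 lower, with a median of 0.65. Among all 489 genes tested, 40.3% were higher and 37.4% lower, with a median of 0.0068.

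Between the lines, 0 of the 45 alanine genes and 0 of the 99 genes of the 8 edited families passed in edgeR without the number as a term, as for cysteine. Their median log2 fold changes were 0.055 and 0.11, beside 0.33 for the cysteine genes. The ratio was above 1 within both numbers for 15 of 45 and 37 of 99 of them. That is 33.3% and 37.4%, beside 27.2% of all genes tested. Differences between these lists were not tested.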

How the data were processed

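Small RNA libraries from HEK293T cells gave 8 deposited samples, which are 4 libraries with 2 lanes each. Per the labels' protocols, TRIzol total RNA was used and the size selection kept 160 to 220 base pairs. The authors deposited whole-number read counts per tRNA gene, 1 column per library. The submitters' processing notes name Bowtie2 2.2.2 and hg38, and the labels name summarizeOverlaps. Not given in the sources used here is how strand, mismatches at modified bases and reads with several matches were treated. The prediction score, the intron flag and a mismatch number are the values deposited by the authors, whose making is not stated. All 4 count columns were matched to libraries by their codes and 0 were left over.

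The tests used edgeR 4.0.16 in R 4.3.3, with filterByExpr at a minimum count of 10, TMM scaling and the quasi-likelihood test, for genes, anticodon families and groups of identical copies. P-values were Benjamini-Hochberg adjusted over all features tested, with a threshold of 0.05. The SE is the log2 fold change divided by the root of F. With line and number both in the fit, the prior degrees of freedom were infinite for genes and groups of copies. The SEs and p-values there use a spread pooled over features. Ratios within a number used TMM-scaled counts with 0.5 added to each count. Library totals were 698143 to 1211292. Shares carry 95% Wilson intervals (scipy 1.17.1) over their own denominators, which were 2335 to 19343 for shares of cysteine counts, 878 to 3776 for copies of Cys-GCA-2 and 239 to 4395 for copies of Cys-GCA-9. DESeq2 1.42.0, other scalings, no filter, the number as a term and leaving out each library were alternatives. The script was tested on simulated data. There, a minimum recovery was required of the fits with the number as a term, not of the fit with the line alone.

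Gene positions were compared with GENCODE v29, and 31 of 38 genes matched a RefSeq tRNA symbol at both ends. The members and lists were chosen with earlier results of these data known. Named genes are the 10 with the highest mean level, those that passed a test between the lines without or with the number as a term, up to 3 with the largest rise and fall of the same sign in both numbers at a mean of at least 50 counts, and those with no count. Shares of the chromosome 17 cluster, of the scattered genes, of copies and by annotation, and the comparison of numbers for families and groups, were added after the counts were seen, as were the genes named for the largest differences between numbers. The Cys-GCA family sum also holds the nm- row, with 0, 0, 1 and 2 counts in the libraries.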

Additional observations from a re-analysis of the deposited data

How the results depend on the processing

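Between the lines, 0 genes, 0 cysteine genes, 0 families and 0 groups of copies passed under DESeq2-type size factors, library totals, no filter, DESeq2 and the omission of each library. The replicate number as a term (replicate block) changed this. It gave 39 of 489 genes tested with TMM, 76 of 489 with library totals and 37 with DESeq2. Of the 33 cysteine genes tested in edgeR, 3 were called with TMM and 8 with library totals. DESeq2 called 2 cysteine genes, and it was run on 574 genes, not all of which got an adjusted p. Cys-GCA-2-3 was called with TMM alone, with an adjusted p of 0.0944 with library totals and none from DESeq2. The cysteine genes with TMM were Cys-GCA-12-1 (0.71, adjusted p 0.00848), Cys-GCA-2-1 (0.58, 0.0299) and Cys-GCA-2-3 (-0.72, 0.0440), where 5.32% of all genes were called higher and 2.66% lower. Families passed in 0, 5 and 1 cases, and groups in 45, 52 and 10, with 4, 5 and 0 cysteine groups. The edgeR fits tested 52 families and 326 groups. With TMM the cysteine groups were Cys-GCA-1, Cys-GCA-9, Cys-GCA-12 and Cys-GCA-21, at 0.52 to 0.74, where 10.1% of all groups were called higher and 3.68% lower. Only Cys-GCA-9 of these sums several copies, and the lone genes Cys-GCA-1-1 and Cys-GCA-21-1 were not called as genes with TMM. The group Cys-GCA-2 was not called, at 0.24 with an adjusted p of 0.442 in edgeR. The labels do not say that a number marks a batch. Same-numbered libraries deviated together from their group means (r = 0.93 over 489 genes), a hint from the data and not from the design. Cys-GCA-17-1, at -0.062, changed sign to 0.0287 with DESeq2-type size factors, 0.0252 with no filter, 0.0344 with DESeq2, 0.0300 with the block in DESeq2, 0.12 with library totals and 0.0567 with the block and library totals.

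Leaving out 1 library, with the lone library of a line assumed to vary like the others, leaves an unequal mix of numbers. The log2 fold change then ran from -0.56 to 1.24 for the Cys-GCA family, from -0.83 to 0.92 for Cys-GCA-2-2, from -0.83 to 0.88 for Cys-GCA-17-1, from -1.01 to 2.55 for Cys-GCA-12-1 and from 0.01 to 1.14 for Cys-GCA-2-1. It ran from -1.16 to 2.10 for Cys-GCA-1-1, from -1.37 to 2.25 for Cys-GCA-9-3, from -1.31 to 2.33 for Cys-GCA-9-2, from -1.38 to 2.37 for Cys-GCA-9-4 and from -0.22 to 1.61 for Cys-GCA-21-1. It ran from -0.42 to 0.75 for Cys-GCA-2-4, from -1.05 to 2.34 for Cys-GCA-3-1 and from -0.98 to -0.46 for Cys-GCA-2-3. The difference in cysteine share ran from -0.297 to 0.923 points and in chromosome 7 share from -7.18 to 12.0 points. The sign of the family and of both shares turned without control library 3 (-0.023, -0.0265 and -4.44) and without knockdown library 4 (-0.56, -0.297 and -7.18). Between the numbers, 264 to 303 genes passed with a library left out, 20 to 24 of them cysteine genes. Fewer cysteine counts limit the precision in number 3, where 7 and 10 cysteine genes had over 100 counts in the control and knockdown library, beside 20 and 25 in number 4.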
